A study of Saccharomyces cerevisiae with 18 samples.

Results

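Expression of 10 ergosterol synthesis genes was followed through a temperature shift in a hybrid of budding yeast, Saccharomyces cerevisiae. They were the transcript features whose name contained the open reading frame of HMG1 (YML075C), HMG2 (YLR450W), ERG9 (YHR190W), ERG1 (YGR175C), ERG11 (YHR007C), ERG25 (YGR060W), ERG28 (YER044C), ERG6 (YML008C), ERG3 (YLR056W) or ERG5 (YMR015C). All 10 had a feature, among 3974 features in the table, and 8 of the 10 stood alone in theirs. ERG9 shared its feature with CTF8 (YHR191C), and ERG1 shared its feature with YGR174W-A, so their reads could not be told apart from those of the partner gene.

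Ergosterol is the main sterol of fungal membranes and the counterpart of cholesterol in animals. Its synthesis runs from acetyl-CoA through mevalonate and farnesyl pyrophosphate to squalene, and then through a series of changes to the sterol rings and side chain in the endoplasmic reticulum. In this yeast the transcription factors Upc2 and Ecm22 bind the sterol regulatory element in promoters of the pathway, and sterol supply, oxygen and heme act on the level of its mRNAs.

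The cells were a diploid made by crossing BY4716 (BY, a laboratory strain isogenic to S288C) with RM11-1a (RM, a vineyard strain), both carrying rpb1-1, a temperature-sensitive mutation in a subunit of RNA polymerase II. Cultures grown at 24 °C in rich medium (YEPD) were brought to 37 °C with hot medium, which inhibits transcription by this polymerase, and sampled on arrival (0 min) and after 6, 12, 18, 24 and 42 min. Each time had 3 libraries of poly(A) RNA, 1 from each of 3 independent cultures. There was 1 hybrid, rpb1-1 was present in every library, and no culture kept at 24 °C was analysed here, so inhibited transcription, heat and time cannot be told apart.

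In all, the counts of allelic reads summed to 13626796 over each single-nucleotide variant (SNV) that tells the parents apart. They ran from 439453 to 1180513 per library apart from culture 3 at 18 min, which held 74320. A read over several SNVs can count at each of them, and numbers of reads below are such counts. BY4716 lacks LYS2, which gives a check of the cross: 0.609% ± 0.529 of the LYS2 reads at 0 min were of the BY allele (SD, n = 3). A level is given as CPM, the count of both alleles scaled to the allelic reads of the library with TMM factors. CPM is here a TMM-scaled share of the measured mRNA pool, and a gene's share of the pool means this scaled value below. The TMM factors of cultures 1, 2 and 3 were 1.09, 1.11 and 1.16 at 0 min and 0.86, 0.96 and 0.85 at 42 min. A change at 42 against 0 min is therefore higher in CPM than in the unscaled share of the allelic reads. CPM also depends on how many SNVs a gene has, so levels are compared between times and never between genes. Fewer cells and less RNA per cell cannot be told apart. A higher share at a later time can mean that a transcript was lost more slowly than the pool or that more of it was made, and these cannot be told apart either.

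The promoter stretches below are shown because 5 of the 10 genes carried the same sterol regulatory element, while the shares of the 4 of them that could be tested moved in different directions. The motif TCGTATA was searched on both strands in the 500 bp before each start codon of the R64 reference (sacCer3). It was present for ERG1, ERG25, ERG28, ERG6 and ERG3, against 7% of 6002 genes, and ERG25 and ERG3 each had 2 copies. One stretch per gene follows, 29 bases long and read 5′ to 3′ on the gene's strand, with the motif or its reverse complement in capitals.
ERG1, chrVII:848788-848816, minus strand: gtagcgggcctTCGTATAgctcggccgag
ERG25, chrVII:610070-610098, plus strand: actgcctccctTCGTATAcgggacacaga
ERG28, chrV:238277-238305, minus strand: taacctaatctTATACGAactgaattaaa
ERG6, chrXIII:253405-253433, minus strand: agccccgatctTCGTATAtggtacctcgt
ERG3, chrXII:253564-253592, plus strand: aaaattcaggcTCGTATAagtggcacaat

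A variant of the element, TCGTTTA, was found for 6 of the 10 genes, HMG1, ERG9, ERG25, ERG6, ERG3 and ERG5, against 8.8% of all genes. The stretches of the 3 genes that had this variant and not TCGTATA are given next.
HMG1, chrXIII:119267-119295, minus strand: tctacgcccgcTCGTTTAaaactctatag
ERG9, chrVIII:484695-484723, plus strand: ggtttagtgccTAAACGAgcagcgagaac
ERG5, chrXIII:302840-302868, minus strand: gaaggtttcccTCGTTTAagtctgcgaag

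ERG11 and HMG2 had neither variant in this window. ATTGTT, the core of the motif of Rox1, a repressor of hypoxic genes, was found for 7 of the 10 genes, against 48.9% of all genes. The motif of the heme-responsive activator Hap1 was found for 0 of the 10 and for 0.35% of all genes. TGTANATA, the motif of the mRNA decay factor Puf3, was found in the 200 bp after the stop codon for 0 of the 10 genes, against 14.1% of all genes. No match of one motif shared bases with a match of another among the 10 genes, and a match is a description of the reference sequence only.

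At 42 against 0 min, HMG1, HMG2, ERG9 and ERG28 rose in share of the pool, ERG6 and ERG3 fell, and ERG11, ERG25 and ERG5 did not pass the test. That is 4 of 9 genes higher, against 37.2% of 2840 features, and 2 of 9 lower, against 39% of features. The count of higher genes was thus close to the share in the whole table and that of lower genes was under it, a gap that was not tested, and the median log2 change was 0.28 over the 9 genes and -0.05 over all features. The 10th gene, ERG1 (squalene epoxidase; chromosome VII, 846933 to 848423, minus strand), had 1 SNV with 22 reads in all 18 libraries, 12 of BY and 10 of RM, and was under the minimum of a mean of 20 reads per library. Its changes were not detectable at this depth.

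**Figure D1:**
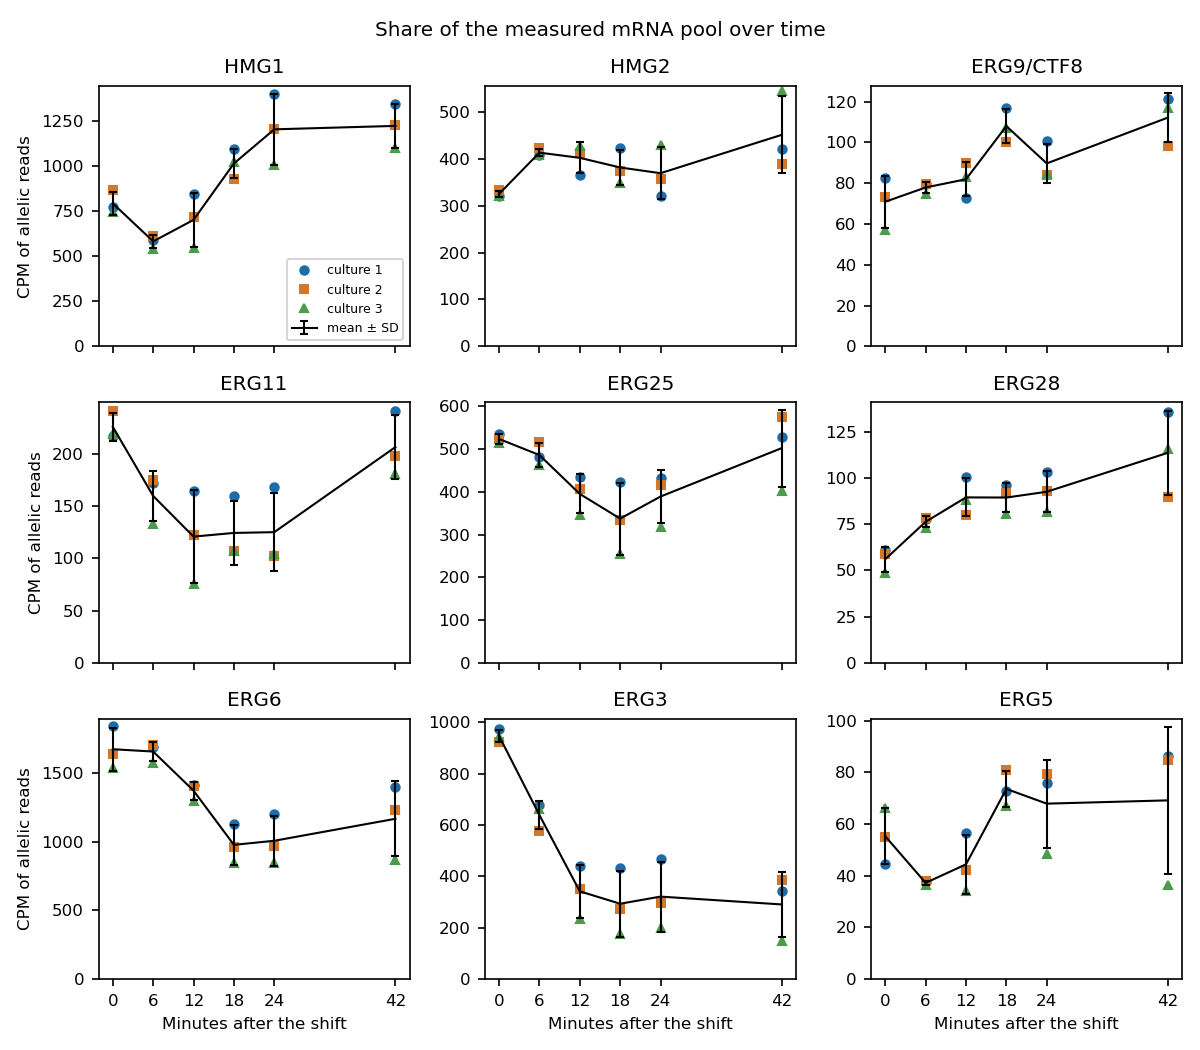
TMM-scaled share of the measured mRNA pool (CPM of allelic reads, y axis from 0) against minutes after the shift for the 9 genes tested. Points are the 3 cultures and the line is their mean ± SD. HMG1 dips at 6 min and ends at a mean of 1221 CPM at 42 min, against 792 CPM at 0 min, and ERG3 is at 291 CPM at 42 min, against 947 CPM at 0 min.

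HMG1 (chromosome XIII, 115734 to 118898, minus strand) and HMG2 (chromosome XII, 1032627 to 1035764, plus strand) encode the isozymes of HMG-CoA reductase, which makes mevalonate and is the main control point of the pathway. HMG1 had 1342, 1223 and 1097 CPM in cultures 1, 2 and 3 at 42 min, against 770, 863 and 742 CPM in the same cultures at 0 min. In CPM every library of 42 min was above every library of 0 min. In unscaled share, culture 3 at 42 min (874 of 944577 reads) was below culture 2 at 0 min (909 of 963408). The log2 change was 0.62 ± 0.14 (adjusted p = 0.000445; every adjusted p here is from edgeR's quasi-likelihood test, adjusted by Benjamini and Hochberg over all features). The ± of a log2 change is its size divided by the square root of the F statistic and stands in for a standard error.

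The path of HMG1 was not steady. Its mean ran through 792, 581, 700, 1013, 1202 and 1221 CPM over the 6 times. At 6 min it had fallen, with 590, 612 and 541 CPM at 6 min against 770, 863 and 742 CPM at 0 min and a log2 change of -0.45 ± 0.14 (adjusted p = 0.0175). Each library of 6 min was below the lowest library of 0 min. The comparison of 6 with 0 min was added after these time means had been seen, and this call was lost when culture 2 was left out. At 42 against 12 min the change was 0.80 ± 0.14 (adjusted p = 0.000201), with 1342, 1223 and 1097 CPM at 42 min and 843, 714 and 543 CPM at 12 min.

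HMG2 moved less. It had 420, 389 and 544 CPM in cultures 1, 2 and 3 at 42 min, against 322, 332 and 321 CPM at 0 min, with no overlap in CPM. The log2 change was 0.48 ± 0.12 (adjusted p = 0.00148). HMG2 held 239, 316 and 433 of the 665992, 850817 and 944577 reads of those cultures at 42 min. At 0 min it held 238, 350 and 431 of 689547, 963408 and 1180513, so its unscaled shares overlapped. It was already higher at 6 min, at 409, 422 and 408 CPM, with a change of 0.35 ± 0.12 (adjusted p = 0.03), and its means lay between 369 and 413 CPM from 6 to 24 min. The 6 min call was lost without culture 1 and without culture 2. At 6 min HMG1 was thus lower and HMG2 higher than at 0 min, and at 42 min both were higher; the difference between the 2 genes was not tested. HMG1 and HMG2 are 81.1% identical over 1201 bp of coding sequence, under the 90% taken here as a near-identical copy. With the deepest SNV of each gene alone, the 42 min changes were 0.34 for HMG1 and 0.06 for HMG2 and neither passed the test, and the 6 min change of HMG2 was -0.10.

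ERG9 (chromosome VIII, 484845 to 486179, plus strand) encodes squalene synthase, the first enzyme committed to sterols; CTF8, its feature partner, takes part in sister chromatid cohesion. The joint feature had 121, 98.5 and 117 CPM in cultures 1, 2 and 3 at 42 min, against 82.4, 73.1 and 57.3 CPM at 0 min. All libraries of 42 min were higher than those of 0 min. The log2 change was 0.68 ± 0.15 (adjusted p = 0.000449). It describes reads of the BY base almost alone, with 215 BY and 0 RM reads at 0 min and 241 BY and 1 RM reads at 42 min. At 12 against 0 min the log2 change was 0.23 ± 0.16 (adjusted p = 0.236) with the 3 SNVs of the series table. With all 13 SNVs of the tables per library it was 0.50 ± 0.11 and past the test. The first and second of the 13 held 2472 and 2881 of the 10511 BY reads, and neither is in the series table.

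ERG11 (chromosome VIII, 120091 to 121683, minus strand) encodes the lanosterol demethylase, a cytochrome P450 and the target of azole antifungals. It fell and came back in CPM. The feature had 164, 122 and 75.9 CPM in cultures 1, 2 and 3 at 12 min, against 218, 241 and 220 CPM at 0 min, with a log2 change of -0.88 ± 0.22 (adjusted p = 0.00244). It then had 241, 198 and 181 CPM at 42 min, above each library of 12 min, with a change of 0.74 ± 0.23 against 12 min (adjusted p = 0.0135). Against 0 min the change at 42 min was -0.14 ± 0.20 (adjusted p = 0.544), and the groups overlapped in CPM. ERG11 held 161, 254 and 295 of the 689547, 963408 and 1180513 reads of cultures 1, 2 and 3 at 0 min. At 42 min it held 137, 161 and 144 of 665992, 850817 and 944577, an unscaled share that was lower in each culture, without overlap. The lower share at 12 min did not pass the test without culture 2, and the return did not pass without culture 2 or without culture 3.

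ERG25 (chromosome VII, 610564 to 611493, plus strand), the oxidase that begins removal of the methyl groups of carbon C-4, was lower at 12 min by a smaller amount. Its means over the 6 times were 524, 486, 395, 337, 389 and 502 CPM. At 12 min the libraries had 434, 406 and 345 CPM, against 535, 523 and 513 CPM at 0 min, without overlap, and the log2 change was -0.40 ± 0.15 (adjusted p = 0.0255). At 42 against 0 min it was -0.06 ± 0.14 (adjusted p = 0.7), while the unscaled share of the allelic reads was lower at 42 min in each culture. The 12 min call was lost without culture 2. At 42 against 12 min the change was 0.34 ± 0.15 (adjusted p = 0.0673), which passed the test with culture as a block in the fit, at the same 0.34.

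ERG28 (chromosome V, 237570 to 238016, minus strand), the membrane scaffold that holds the C-4 demethylation enzymes together, was higher at 12 and at 42 min, whereas ERG25, an enzyme it tethers, was lower at 12 min. ERG28 had 136, 89.8 and 116 CPM in cultures 1, 2 and 3 at 42 min, against 60.8, 58.9 and 48.4 CPM at 0 min. The lowest library of 42 min was above the highest of 0 min, and the fold was 2.03, with a log2 change of 1.02 ± 0.16 (adjusted p = 1.18e-05). It was the largest rise of the 9 genes, and it kept its call under each of the alternatives run, at 0.88 to 1.21. The rise was present at 12 min, with 100, 79.9 and 88.1 CPM and a change of 0.69 ± 0.17 (adjusted p = 0.00224). At 6 min, in the comparison added later, it was 0.46 ± 0.16 (adjusted p = 0.0348), a call that was lost whichever of the 3 cultures was left out.

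ERG6 (chromosome XIII, 251839 to 252990, minus strand), the sterol methyltransferase of the side chain, had 1402, 1236 and 868 CPM in cultures 1, 2 and 3 at 42 min, against 1847, 1638 and 1542 CPM at 0 min. The libraries did not overlap. The log2 change was -0.52 ± 0.15 (adjusted p = 0.00369). Its means were 1676 and 1659 CPM at 0 and 6 min, 1374 CPM at 12 min, and between 979 and 1168 CPM from 18 to 42 min, so the lower share came after 6 min. With culture as a block it was called at 12 against 0 min too, at -0.29, and at 42 against 12 min, at -0.25.

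ERG3 (chromosome XII, 253861 to 254958, plus strand), the desaturase of the sterol ring, fell most. It had 341, 384 and 147 CPM in cultures 1, 2 and 3 at 42 min, against 973, 925 and 944 CPM at 0 min. The 42 min libraries held 0.306 times the share at 0 min, with a log2 change of -1.71 ± 0.30 (adjusted p = 3.95e-05). Most of it had happened by 12 min, at 442, 349 and 235 CPM and a change of -1.46 ± 0.30 (adjusted p = 0.000429). Between 42 and 12 min the change was -0.26 ± 0.32 (adjusted p = 0.535). Culture 3 was the lowest of the 3 at 12, 18, 24 and 42 min, and without it the 42 min change was -1.39, still past the test.

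ERG5 (chromosome XIII, 300869 to 302485, minus strand), the desaturase of the side chain and the other P450 enzyme of the pathway, depended on the culture. It had 86.2, 84.9 and 36.4 CPM in cultures 1, 2 and 3 at 42 min, against 44.6, 55.1 and 66.2 CPM at 0 min. Cultures 1 and 2 were higher at 42 min and culture 3 was lower. The log2 change was 0.28 ± 0.26 (adjusted p = 0.336); it was 0.76 and past the test without culture 3, and -0.02 without culture 1.

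At 12 against 0 min, 2 of 9 genes were higher (HMG2 and ERG28; 3 with ERG9 when all SNVs were used), against 27.8% of features, and 3 of 9 were lower (ERG11, ERG25 and ERG3), against 26.8%. HMG2 was at 0.30 ± 0.12 (adjusted p = 0.0442) and lost its call whichever of the 3 cultures was left out. At 42 against 12 min, 3 of 9 were higher (HMG1, ERG9 and ERG11), against 21.9% of features, and 0 of 9 were lower by edgeR, against 24%. DESeq2 called 0 lower as well, and the 4 genes with an unadjusted p under 0.05 in edgeR were all higher. ERG9 was at 0.44 ± 0.16 (adjusted p = 0.0296), a call that was also lost whichever culture was left out. DESeq2 and a fit of the 2 times compared alone lost the ERG9 call too. With all 13 SNVs the ERG9 change was 0.26, still past the test. At 6 against 0 min, 2 of 9 were higher (HMG2 and ERG28), against 17.6%, and 1 of 9 was lower (HMG1), against 17.3%. With culture as a block, ERG11, ERG3 and ERG5 were called lower at 6 min as well, at -0.54, -0.57 and -0.62. The comparisons share libraries, those of 0 min or of 12 or 42 min, and are not independent of each other.

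**Figure D2:**
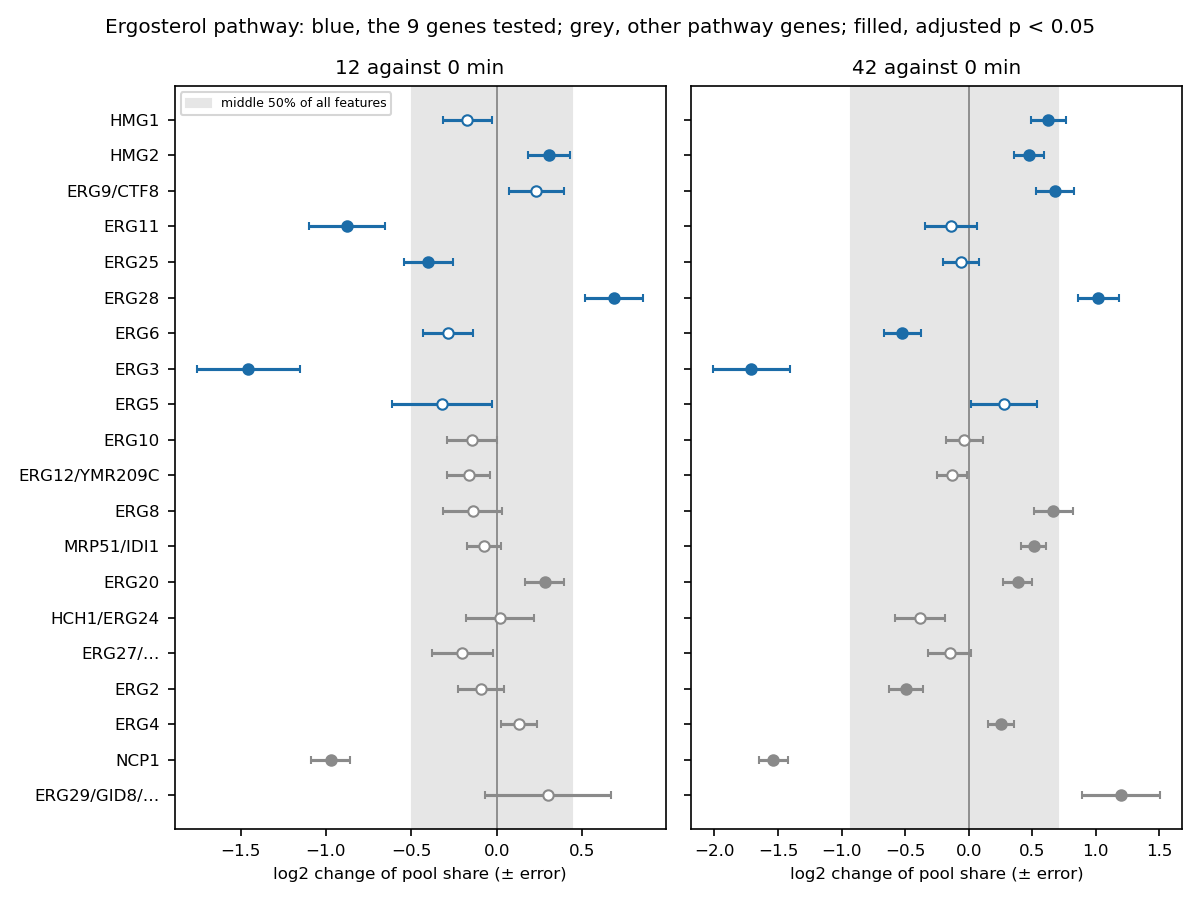
Log2 change of the share of the pool at 12 (left) and at 42 min (right), each against 0 min, for the 9 genes (blue) and 11 other enzymes of the pathway (grey), listed in pathway order within each colour; bars are ± the error defined in the text, filled points have an adjusted p under 0.05 and the grey band holds the middle 50% of all features. At 42 min ERG28 is at 1.02, ERG3 at -1.71 and NCP1 at -1.54, outside the band, while HMG1, HMG2, ERG9 and ERG6 are inside it.

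Of 15 other enzymes of the pathway, 12 had a feature and 11 were tested at 42 against 0 min, with 5 higher, against 37.2% of all features, and 2 lower, against 39%. The median log2 change was -0.04, near the -0.05 of all features. ERG8 (phosphomevalonate kinase) was at 0.67 ± 0.16, the joint feature of IDI1 (isopentenyl diphosphate isomerase) and MRP51 at 0.51 ± 0.10 and ERG20 (farnesyl pyrophosphate synthase) at 0.39 ± 0.11. ERG4 (the last reductase) was at 0.26 ± 0.10, and the feature of ERG29, GID8 and YMR135W-A was at 1.20 ± 0.31.

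The 2 lower ones were ERG2 (sterol isomerase), at -0.49 ± 0.14, and NCP1, at -1.54 ± 0.11. NCP1 is the reductase that hands electrons to the P450 enzymes ERG11 and ERG5, neither of which was lower at 42 min by the test. ERG10 (-0.04 ± 0.14) and ERG12 with YMR209C (-0.13 ± 0.12), both of the steps before squalene, did not pass, nor did the features of ERG24 and ERG27. MVD1 was under the read minimum, and ERG13, ERG7 and ERG26 were not analysed here.

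Among 11 regulators of sterol synthesis, 8 were tested, and 3 were higher, against 37.2% of all features, and 4 lower at 42 min, against 39%. NSG2, a membrane protein that steadies Hmg2, was at 1.69 ± 0.12, and HRD1, the ubiquitin ligase that marks Hmg2 for degradation, at 0.98 ± 0.20. The joint feature of MOT3, a repressor of ergosterol genes, and TVP18 was at 0.38 ± 0.08. ECM22, an activator of the pathway, was at -0.96 ± 0.29, HAP1 at -0.46 ± 0.11, the feature of MGA2 and LYS1 at -1.39 ± 0.18 and that of NSG1 with IGO2, WSS1 and YCK1 at -0.50 ± 0.21. UPC2 was under the read minimum. Of 7 genes of sterol esters and sterol uptake 3 were tested, and PDR11, an uptake transporter, was at 0.56 ± 0.22 while YEH1, a steryl ester hydrolase, was at -0.60 ± 0.26.

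Allele-specific decay (ASD) is the question the series was made for: whether the BY share of a gene's reads drifts with time after the shift. It was not detected for any of the 8 genes tested, 0 of 8 against 6.62% of 2838 features, by edgeR's quasi-likelihood test. At an unadjusted p under 0.05 the count was 0 of 8 too, and DESeq2 also called 0. The change of log2(BY/RM) over 42 min was 0.15 ± 0.08 for HMG1, -0.05 ± 0.13 for HMG2, -0.06 ± 0.17 for ERG11, -0.06 ± 0.11 for ERG25, 0.13 ± 0.24 for ERG28, -0.04 ± 0.07 for ERG6, -0.20 ± 0.12 for ERG3 and 0.55 ± 0.34 for ERG5. The adjusted p ran from 0.35 to 0.931.

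How small a drift could be seen depended on depth. HMG1 had 12245 allelic reads over 18 libraries and ERG6 had 18536, and their errors were 0.08 and 0.07. ERG5, with 774 reads at 1 SNV, had the widest error, 0.34, with a BY share of 60.6% ± 6.92 in the libraries of 42 min, against 53.4% ± 7.29 in those of 0 min (SD, n = 3 each). Its value of 100% in culture 3 at 18 min rests on 5 reads. The mean BY share of ERG5 was highest at 24 min, at 72.9% ± 11.7 (SD, n = 3). The ASD slope is linear in minutes and does not capture a rise followed by a fall, and that shape was not tested. For ASD, 0 of 11 other enzymes of the pathway were called, against 6.62% of 2838 features. Of the regulators 1 of 8 was called, HAP1, at 1.62 ± 0.17. Of the genes of sterol esters and uptake 1 of 3 was called, TGL1, a steryl ester hydrolase, at 0.83 ± 0.16. With so few genes tested, these counts cannot be told apart from that share.

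**Figure D3:**
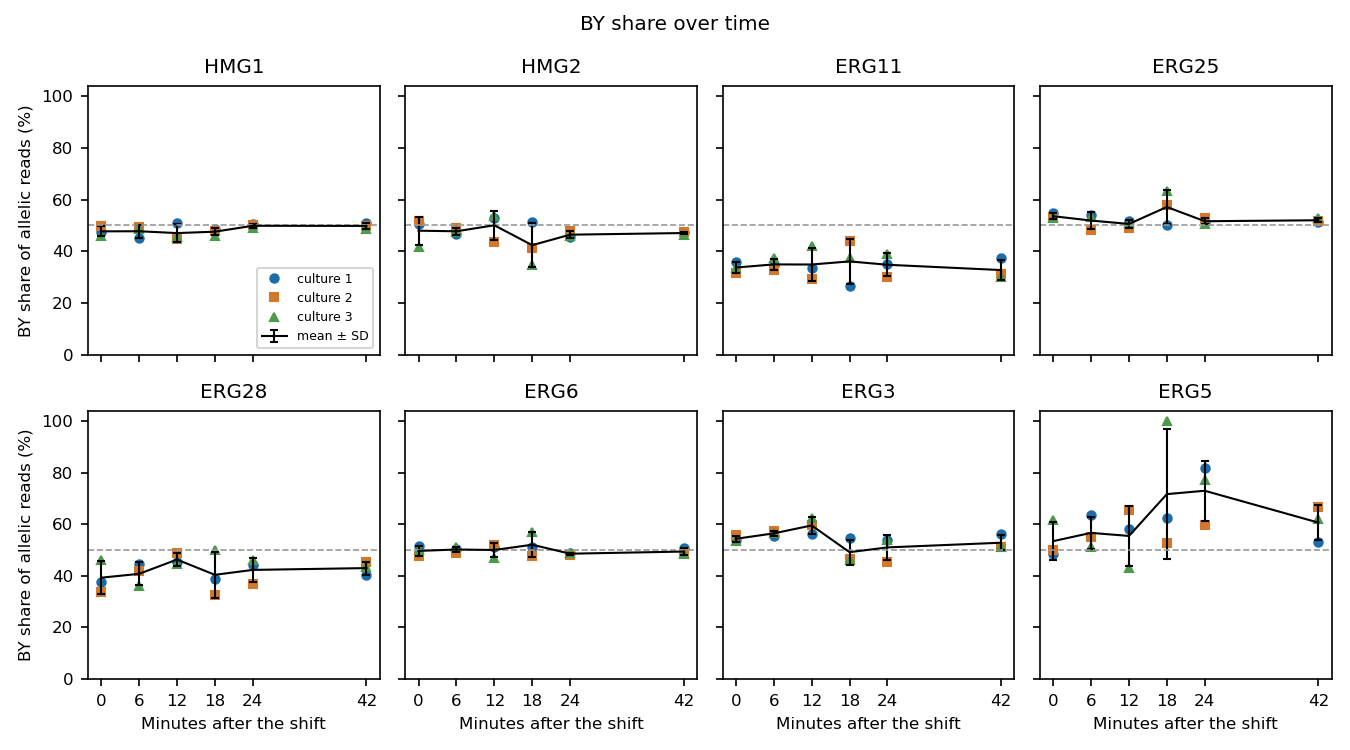
BY share of allelic reads (percent, y axis from 0) against minutes after the shift for the 8 genes with reads of both alleles; points are the 3 cultures, the line is their mean ± SD and the dashed line is at equal shares. ERG11 stays between 32.7 and 36.1% on average at all 6 times, and the 100% point of ERG5 at 18 min rests on 5 reads.

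Allele-specific expression (ASE) compares the BY with the RM allele within libraries of a single time. At 0 min, 3 of 8 genes were called, against 22.4% of 3015 features. ERG11 stood out in size: BY had 58, 80 and 99 reads in cultures 1, 2 and 3, and RM had 103, 174 and 196 reads. RM was higher in each of the 3 cultures. The BY share was 33.7% ± 2.27 (SD, n = 3) and log2(BY/RM) was -0.995 ± 0.11 (adjusted p = 2.72e-07), so the BY allele had 0.502 times the reads of the RM allele.

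The ERG11 difference was there at 42 min too. BY had 51, 50 and 43 reads and RM had 86, 111 and 101 reads in the same cultures, a BY share of 32.7% ± 3.95 (SD, n = 3) and a log2(BY/RM) of -1.05 ± 0.14 (adjusted p = 3.4e-09). It was called under each of the alternatives run at either time. All of it rests on 1 SNV, and what the site itself adds to it was not tested.

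The spread among SNVs of the same gene shows what 1 site can do. In the 5 genes with several SNVs and both alleles, 25 SNVs had at least 500 reads, and their BY shares ran from 37.7 to 60.8%. ERG11, at 33.6% over all libraries (95% exact binomial interval 31.7 to 35.6%, for counting error only), was below that range. In the 1067 features with several such SNVs, 213 of 5244 SNVs (4.06%) lay at least as far in log2(BY/RM) from the others of their own feature as ERG11 lay from equal shares at 0 min. This count was added after the data were seen.

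ERG6 shows the spread within a gene best. Its 6 SNVs gave 50.5, 60.8, 47.6, 48.4, 37.7 and 51.0% BY, while the gene as a whole was at 49.7%. The differences between sites were stable: the second SNV was at 63.3, 58.2 and 60.8% in cultures 1, 2 and 3, and the fifth at 39.4, 37.2 and 36.7%. The gene was not called at 0 min, when log2(BY/RM) was -0.03 ± 0.04 (adjusted p = 0.724). Its deepest SNV alone, the third, was called RM higher in the libraries of 0 min, at -0.29. Over all 18 libraries that SNV held 5560 reads and was closer to equal shares, at 47.6% BY.

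**Figure D4:**
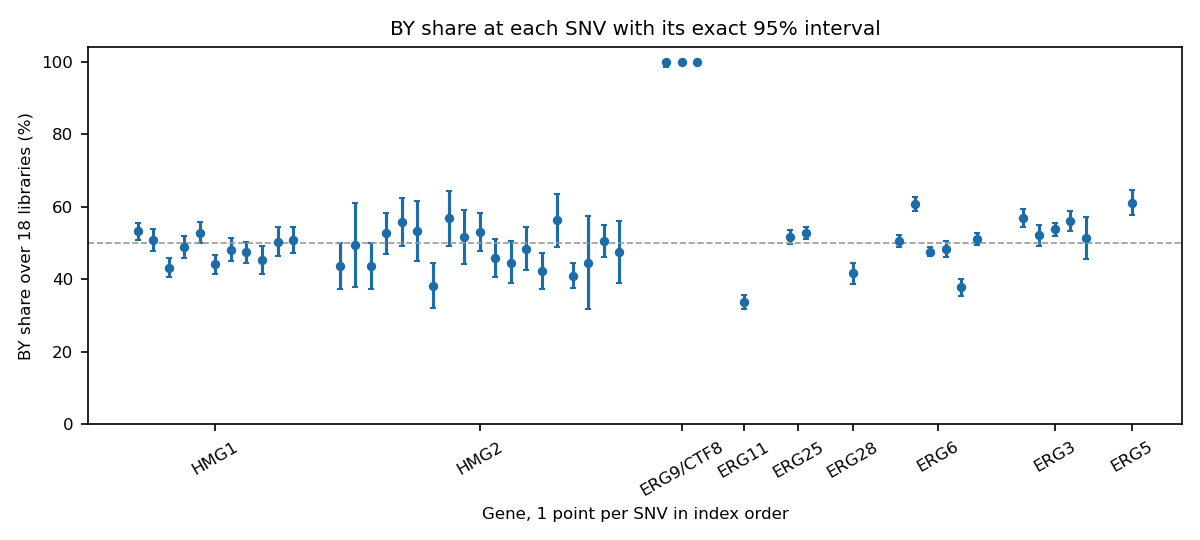
BY share (percent, y axis from 0) at each SNV of the 9 genes over all 18 libraries, with 1 point per SNV in the order of the SNV index; bars are exact binomial 95% intervals and cover counting error only. The SNVs of ERG6 run from 37.7 to 60.8%, ERG11 has a single SNV at 33.6%, and the 3 SNVs of ERG9/CTF8 are at 99.8 to 100%.

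The other calls at 0 min were small. ERG3 had 388, 543 and 677 BY reads and 332, 431 and 592 RM reads in cultures 1, 2 and 3, with BY higher in each and a log2(BY/RM) of 0.25 ± 0.05 (adjusted p = 0.00142). ERG25 had 217, 293 and 364 BY reads and 179, 258 and 326 RM reads, at 0.20 ± 0.07 (adjusted p = 0.0417). Neither was called by DESeq2 or with the deepest SNV alone, and ERG25 was not called whichever culture was left out. ERG28 had 17, 21 and 30 BY reads and 28, 41 and 35 RM reads, at -0.61 ± 0.22 (adjusted p = 0.0503).

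At 42 min 2 of 8 genes were called, against 27.9% of 2592 features: ERG11 and ERG5. ERG5 had 26, 46 and 18 BY reads and 23, 23 and 11 RM reads in cultures 1, 2 and 3, at 0.65 ± 0.24 (adjusted p = 0.0329). BY was higher in each culture, but the call was lost by DESeq2, without culture 2 and without culture 3. It was also lost with the deepest SNV of each feature alone, a setting that leaves the reads of ERG5, which has 1 SNV, and its value of 0.65 as they were. Neither HMG1 nor HMG2 was called at either time, with log2(BY/RM) at 42 min of -0.01 ± 0.06 for HMG1 and -0.17 ± 0.09 for HMG2.

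ERG9 could not be tested for alleles, because nearly every read of its feature carried the BY base. The 3 SNVs of the table held 1179 BY reads and 1 RM read. Just 4 of 2840 features (0.141%) had over 98% BY reads, and 30 (1.06%) had under 2%. The next features along the chromosome by SNV order were balanced, YHR187W/YHR188C at 50.3% BY and YHR192W/YHR193C at 48.3%, and the fourth feature before ERG9, YHR182C-A/YHR183W, had 1860 BY reads and 0 RM reads. Among the other enzymes, the feature of ERG24 and HCH1 was one-sided the other way at 0 min, with log2(BY/RM) at -5.74 ± 0.39 (adjusted p = 1.51e-10). The cause of such one-sided features was not tested.

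**Figure D5:**
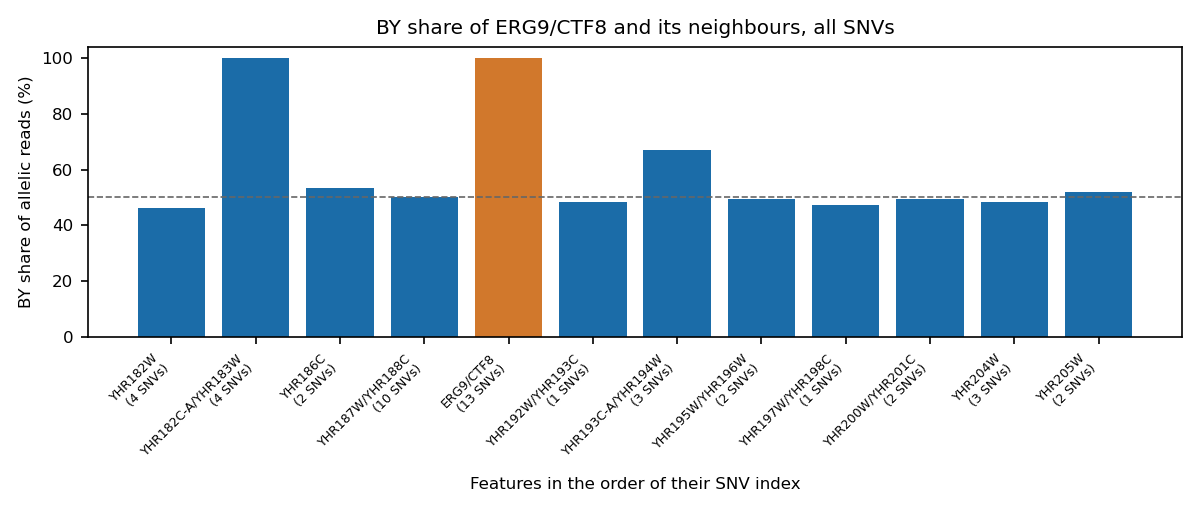
BY share of allelic reads (percent, y axis from 0) of the ERG9/CTF8 feature (orange) and of its neighbours with at least 100 reads (blue) in the order of their SNV index, all SNVs of the tables per library summed over 18 libraries; the dashed line is at equal shares. ERG9/CTF8 is at 99.9% and its direct neighbours are at 50.3 and 48.3%.

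Other pathway enzymes called at 0 min were NCP1 at 0.50 ± 0.06, ERG8 at 0.40 ± 0.12, the feature of ERG27, YLR101C and APC9 at 0.47 ± 0.16 and ERG2 at 0.24 ± 0.08, with BY higher, and ERG10, the first enzyme of the pathway, at -0.20 ± 0.05, with RM higher. With ERG24, these were 6 of 10 tested, against 22.4% of all features. NCP1 was the 1 gene of 10 tested in this list that was called at 42 min, against 27.9% of features, at 0.36 ± 0.12 (adjusted p = 0.0148). The 10 tested were not the same at both times. The feature of ERG24 and HCH1 was not tested at 42 min, and that of ERG29 was not tested at 0 min.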

How the data were processed

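The deposited values are raw read counts, 1 per SNV, allele and library. The authors mapped the reads to each parental genome in turn, dropped duplicate reads and counted those at SNVs of transcript features, with overlapping genes joined, per the file headers; the submitters' processing notes name BWA 0.5.9, Picard 1.43 and sacCer3. All libraries shared 1 sequencing lane. The library kit does not mark strand. The table of the whole series holds 30497 SNVs and was used; the tables per library hold 35952, with identical counts at the shared ones, and served as an alternative. A read over several SNVs can be counted at each.

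Counts were summed per feature and allele. Features averaging 20 or more reads per library entered the tests, and the allele tests needed 2 or more reads of each allele. For abundance, both alleles together were fitted with the quasi-likelihood method of edgeR 4.0.16 under R 4.3.3, with TMM factors and time as 6 levels in all 18 libraries. ASD used the allele columns of all 18 libraries with terms for library, allele and allele by minutes, the slope multiplied by 42 min. ASE used the libraries of 1 time. P-values were adjusted by Benjamini and Hochberg over all features, with a threshold of 0.05. DESeq2 1.42.0 was an alternative. Scripts were tested on simulated data.

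The 10 genes, the lists and the motifs were chosen with earlier results of these data known, and the comparison of 6 with 0 min, the Puf3 motif and the spread among SNVs were added after values were seen. All 10 genes are named, and list members are named where called. Replicate numbers mark the culture from which each aliquot was taken, so values are listed by culture. The main abundance and ASD tests had no term for culture and were not paired by it. Culture entered only as the block alternative, named the replicate block below. Some deposited names carry another replicate number than the sample title, and the titles were used. Departures from the means of each time correlated with a median of 0.159 within a culture (-0.0323 to 0.469, 45 pairs). Between cultures the median was -0.067 (-0.501 to 0.317, 90 pairs), and the ranges overlapped. Libraries of 1 time differed by more than sampling noise (chi-square per degree of freedom 1.35 to 8.61). Python 3.11.15, pandas 2.3.3 and blastn 2.17.0 made the other tables. Intervals cover counting error only.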

Additional observations from a re-analysis of the deposited data

Results flagged for a closer look

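The feature of ERG9 and CTF8 had signal in data that the comparisons did not use. Of its 13 SNVs in the tables per library, 10 are not in the table of the whole series. Those 10 held 9332 BY reads and 11 RM reads, a BY share of 99.88%, against 1179 BY reads and 1 RM read at the 3 SNVs that were used. Each of the 13 SNVs was nearly all BY, and 12 RM reads were found in all. The cause was not tested.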

How the results depend on the processing

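For single genes, 543 of the alternative values kept their direction and side of the threshold, 36 lost the call, 21 gained one and 20 changed sign, all but HMG2 at 6 min for genes that had not been called. In the comparison of 6 with 0 min, DESeq2 called 1 gene higher; the deepest SNV alone gave 0 higher and 3 lower, and 479 features; the replicate block and the 2 times alone gave 4 lower each. At 12 against 0 min, DESeq2 and the deepest SNV each gave 1 higher, and the deepest SNV 916 features. At 42 against 0 min, the deepest SNV gave 2 higher and 1439 features. At 42 against 12 min it gave 754 features, and the replicate block 1 lower. For ASD, the features called were 118 by DESeq2, 42 with the deepest SNV and 86 without 0 min. For ASE at 0 min, DESeq2 called 216 features and the deepest SNV 356; the genes with BY higher were 0 with DESeq2 and the deepest SNV and 1 with no filter, and those with RM higher were 2 with all SNVs and with the deepest SNV. For ASE at 42 min, DESeq2 called 219 features and the deepest SNV 311; BY higher were 0 with both, and 2 with no filter and with all SNVs.

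With each culture or the shallow library of 18 min left out in turn, the features called ran from 540 to 1035 for 6 against 0 min, 97 to 189 for ASD and 400 to 536 for ASE at 0 min. The genes called ran from 0 to 2 higher and 0 to 2 lower at 6 min, 1 to 2 higher and 1 to 3 lower at 12 min, and 1 to 3 higher for 42 against 12 min. For ASE they were 1 BY higher and 1 to 2 RM higher at 0 min, and 0 to 1 BY higher at 42 min.

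The same exclusions took these single values through 0: ERG6 at 6 against 0 min (-0.038 to 0.055), ERG25 (-0.174 to 0.062) and ERG5 (-0.016 to 0.755) at 42 against 0 min, the ASD of ERG25 (-0.119 to 0.002), ERG11 (-0.130 to 0.025), ERG3 (-0.327 to 0.008) and HMG2 (-0.153 to 0.003), the ASE at 0 min of HMG2 (-0.289 to 0.068), ERG6 (-0.068 to 0.029) and ERG5 (-0.032 to 0.470) and the ASE at 42 min of HMG1 (-0.047 to 0.022). With the deepest SNV alone the sign changed for HMG2 at 6 against 0 min (-0.095) and at 42 against 12 min (-0.196), for ERG9 at 12 against 0 min (-0.072), for the ASD of HMG2 (0.017) and ERG6 (0.276) and for the ASE at 42 min of ERG6 (0.008) and HMG1 (0.205). ERG6 at 6 min was 0.004 with no filter, and the ASD of ERG25 was 0.006 without 0 min. The cause was not tested.

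The replicate block changed no call of the 10 genes other than those given with the results. Leaving out culture 3 at 18 min changed no call of these genes. ERG1, with 22 reads, and the allele tests of ERG28 and ERG5, with 1129 and 774 reads at 1 SNV each, were limited by depth.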
